A study of Mus musculus with 3 samples.

Results

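The genes followed here, 10 members of the NRF2 and glutathione defence system, were measured in cultured mouse peritoneal macrophages that lacked Angptl4 and were exposed to PBS, to intralipid, or to intralipid with recombinant ANGPTL4. The genes were taken by symbol from the platform's annotation. The list was chosen with earlier results of these data known, so counts set beside all genes describe these arrays and test nothing. All 10 listed symbols (Nfe2l2, Keap1, Gclm, Gclc, Gsr, Txnrd1, Srxn1, Hmox1, Abcc1 and Cbr3) had a probe set with a single gene symbol, among 19938 genes so measured, and each of the 10 had 1 such probe set.

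All cells came from male Angptl4-/- mice (strain C57Bl/6J), so the PBS controls carried the deletion too and no wild-type cells were analysed here. Macrophages were drawn into the peritoneal cavity with 4% thioglycollate, an irritant broth, collected 3 days later and kept in culture for 2 days. The 3 groups were PBS for 6 h, intralipid (a triglyceride emulsion, 0.5 mM triglyceride) for 6 h, and the same intralipid exposure preceded by 1.5 h with 2.5 µg/mL recombinant mouse ANGPTL4, a secreted inhibitor of lipoprotein lipase. Each group was 1 Affymetrix array hybridised with RNA pooled from 3 samples. The labels do not give the age of the mice, whether the pooled samples came from separate animals, or whether cultures without ANGPTL4 had a mock pre-incubation. With 1 array per group there is no replicate check, no error and no test. The words higher and lower describe these 3 arrays, and their number limits the precision.

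NRF2, encoded by Nfe2l2, is a transcription factor that KEAP1 holds in the cytoplasm and marks for breakdown. Oxidants and electrophiles that modify KEAP1 let NRF2 accumulate, enter the nucleus and pair with a small MAF protein at antioxidant response elements. Its known targets make and recycle glutathione, keep thioredoxin and peroxiredoxins reduced, break down heme, reduce carbonyls and export conjugates, and in macrophages the pathway is known to limit oxidative damage during inflammation.

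Promoter windows of 4 of the genes are shown. Those printed for Gclm, Txnrd1 and Srxn1 are windows that held a match to the motifs below. Cbr3 is shown because it differed most in the comparison with ANGPTL4 described below. The window of Nfe2l2, with a match, and those without one in Keap1 and at the other Txnrd1 starts are not printed. Each printed window is the RefSeq window (GRCm38.p6) from 250 bases before to 50 bases after a gene start. It has 300 bases on the plus strand, written 5′ to 3′. Gclm lies at chr3:122245307-122245606, Txnrd1 (the second of its 3 listed starts) at chr10:82858956-82859255, Srxn1 at chr2:152105274-152105573 and Cbr3 at chr16:93682969-93683268. Capitals mark matches, on either strand, to 3 motifs. These are the core letters of an antioxidant response element (TGACNNNGC), its MAF-type form (TGANTCAGC) and an AP-1 site (TGANTCA). The core and the MAF-type form both have 9 letters, and a match to either need not match the other. The MAF-type form contains the letters of the AP-1 site.
Gclm: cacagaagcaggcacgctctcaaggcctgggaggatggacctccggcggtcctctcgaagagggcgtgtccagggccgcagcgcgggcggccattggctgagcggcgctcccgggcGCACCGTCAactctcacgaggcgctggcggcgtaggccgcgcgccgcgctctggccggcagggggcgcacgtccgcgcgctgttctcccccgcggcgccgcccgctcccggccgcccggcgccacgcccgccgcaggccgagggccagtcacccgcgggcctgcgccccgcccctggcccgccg
Txnrd1: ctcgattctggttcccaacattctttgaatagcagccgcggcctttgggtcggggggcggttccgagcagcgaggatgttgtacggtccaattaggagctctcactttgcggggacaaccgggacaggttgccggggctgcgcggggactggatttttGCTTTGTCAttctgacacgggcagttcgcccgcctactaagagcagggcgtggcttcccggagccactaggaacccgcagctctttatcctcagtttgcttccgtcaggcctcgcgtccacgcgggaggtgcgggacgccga
Srxn1: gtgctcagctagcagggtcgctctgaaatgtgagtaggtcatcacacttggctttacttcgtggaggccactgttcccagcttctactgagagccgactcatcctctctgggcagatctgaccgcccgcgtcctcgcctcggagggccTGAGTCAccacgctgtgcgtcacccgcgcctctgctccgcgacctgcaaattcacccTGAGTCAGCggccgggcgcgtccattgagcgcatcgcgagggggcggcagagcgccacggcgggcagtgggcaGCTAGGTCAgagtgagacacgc
Cbr3: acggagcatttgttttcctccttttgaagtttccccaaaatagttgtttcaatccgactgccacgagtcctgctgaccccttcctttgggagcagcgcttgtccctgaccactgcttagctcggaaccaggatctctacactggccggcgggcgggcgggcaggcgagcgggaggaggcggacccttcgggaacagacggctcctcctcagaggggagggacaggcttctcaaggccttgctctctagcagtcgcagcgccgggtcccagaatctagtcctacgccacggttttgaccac

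By symbol, 6 of the 10 genes matched a window, and Gclc, Gsr, Hmox1 and Abcc1 did not. Over the 8 windows of these 6 genes, 4 held the core letters, in Nfe2l2, Gclm, Txnrd1 and Srxn1, against 12.4% of all 32851 windows of this length. The match in Gclm began at position -134 from the start and that in Txnrd1 at -92, both on the minus strand. Srxn1 was the only one of the 6 with the MAF-type form, which began at -45 and is held by 1.19% of all windows. It also held a core match at 29 bases past the start and a second AP-1 match at -102, a motif in 7.81% of all windows. The windows of Keap1 and Cbr3, and those at the other Txnrd1 starts, held none of the 3 motifs. A match describes letters in a window and shows no binding.

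Levels are on the log2 scale, as the authors deposited them for each probe set, and a difference of 1 is 2-fold. A gene was counted in a comparison where at least 1 of its arrays reached the expression floor, which was the median over annotated probe sets of that array (4.98 (PBS), 4.97 (intralipid) and 4.97 (intralipid plus ANGPTL4)). It was called higher or lower where the arrays lay at least 2-fold apart and the higher array reached the floor. All 10 genes reached the floor on all 3 arrays. Values of different probe sets are not compared with each other as levels, since probes differ in brightness. Of the genes past the floor on any array, 25.1% held 1 identical value on all 3 arrays, and none of the 10 did.

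Macrophage markers reached the floor in 11 of 11 cases, with a summed level (log2 of the sum of linear values) of 15.07 (PBS), 15.10 (intralipid) and 15.14 (intralipid plus ANGPTL4). Markers of B cells (4 measured), of T and NK cells (5) and of mast cells (5) had 0 past the floor, and no erythroid marker of the 2 measured passed it. Neutrophil, eosinophil, dendritic cell and mesothelial markers had 1 each (S100a8, Siglecf, Clec9a and Wt1). Clec9a, a receptor of cross-presenting dendritic cells, read 3.44, 5.00 and 3.32, so it passed the floor on the intralipid array alone, and its part in the results was not tested. The other 4 dendritic cell markers were below the floor on every array. Fibroblast markers passed it in 5 of 6 cases, among them Col1a1 and Col1a2, and their summed level was 11.17, 11.16 and 11.15 in that order of arrays.

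**Figure D1:**
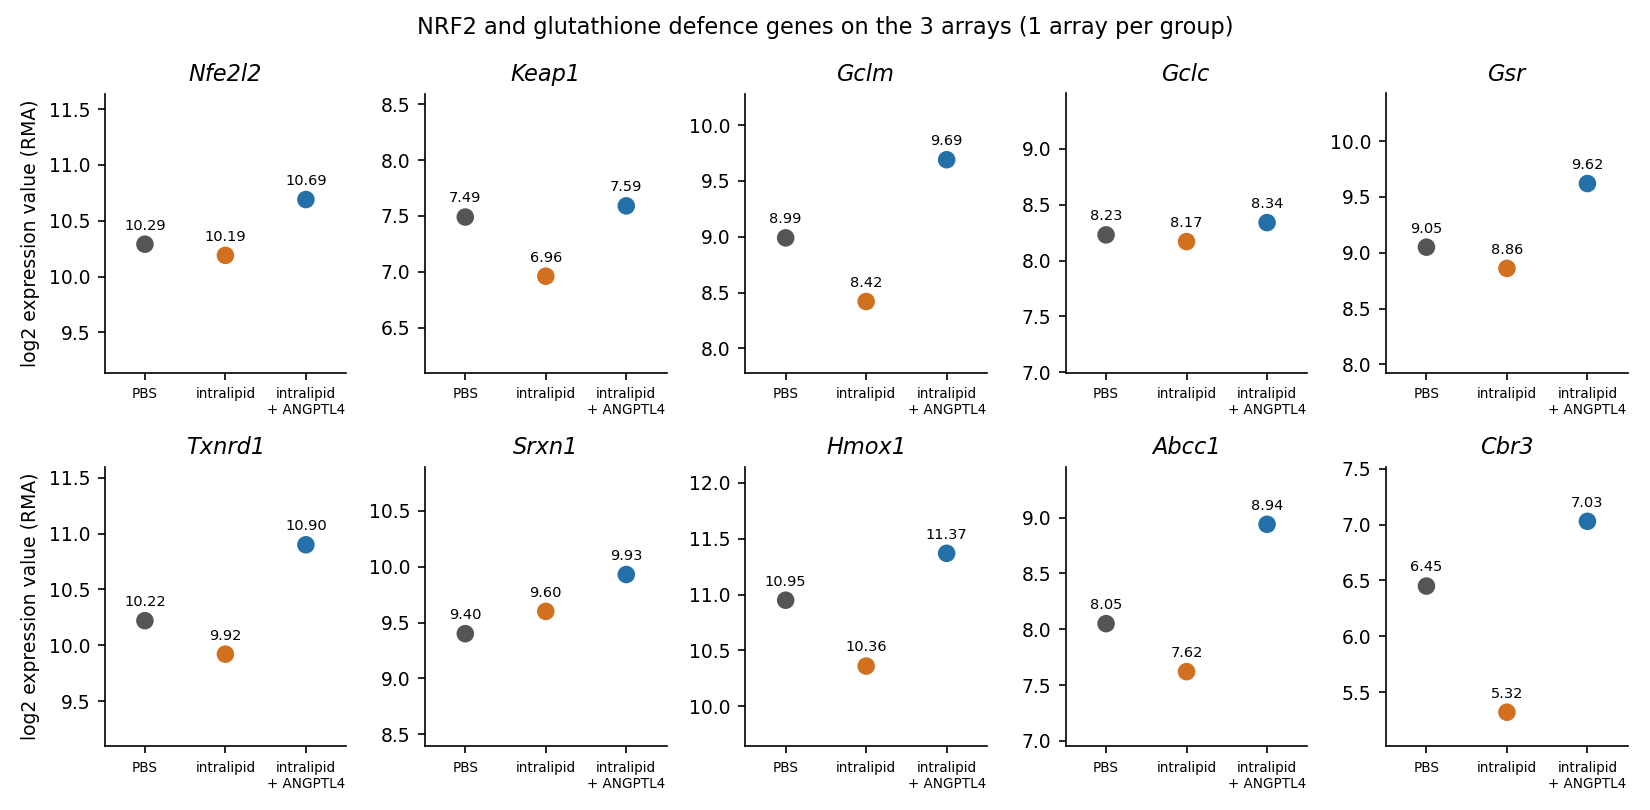
Log2 expression value (RMA, vertical axis) of each gene on the PBS, intralipid and intralipid plus ANGPTL4 arrays, 1 point per array, with no error because each group has 1 array. Every panel spans the same number of log2 units around its own mean; in all 10 panels the intralipid plus ANGPTL4 point is the highest, and in 9 the intralipid point is the lowest, the exception being Srxn1.

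The order of the 3 arrays was nearly the same for every gene, as the plot of levels by array shows. Intralipid was lowest, PBS in the middle and intralipid plus ANGPTL4 highest for 9 of 10 genes. Only in Srxn1 was PBS the lowest. The share of all genes with the same order is not given here. Of all genes past the floor, 44.4% were lower with intralipid than with PBS. Between intralipid with and without ANGPTL4, 46.3% were higher with it. Several neighbouring values lay close together, such as PBS and intralipid in Gclc (8.23 and 8.17) and in Nfe2l2 (10.29 and 10.19), and PBS and intralipid plus ANGPTL4 in Keap1 (7.49 and 7.59). Without replicate arrays, whether such neighbours differ beyond the spread between cultures cannot be said.

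The first comparison, intralipid against PBS, asks how the defence genes stood after the lipid load. They were mostly a little lower. The median difference of the 10 genes was -0.37, against 0.00 over all 10049 genes past the floor. By some amount, 9 genes were lower and 1 was higher, where 44.4% of all genes were lower and 23.5% higher. The other 3227 of all genes were equal on both arrays. Only Cbr3 was called, as lower, beside 1.32% of all genes called lower, and 0 of 10 were called higher, beside 2.51%. At 1.5-fold the lower genes were Cbr3 and Hmox1, 2 of 10, beside 5.57% of all genes. In bulk RNA of this kind, fewer cells of a type and less RNA per cell cannot be told apart.

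The second comparison sets intralipid plus ANGPTL4 against intralipid alone, where ANGPTL4 was given 1.5 h before the lipid. No array had ANGPTL4 without intralipid, and the arrays do not measure how much lipid the cells took up. All 10 genes were higher with ANGPTL4, where 46.3% of all 10064 genes were higher and 23.0% lower. The other 3083 genes were equal on both arrays, and none of the 10 was. Such ties lower both shares wherever these are set beside a count. A total of 4 were called higher (Cbr3, Abcc1, Gclm and Hmox1), beside 2.53% of all genes, and 0 were called lower, beside 2.30%. At 1.5-fold the count was 7 of 10, with Txnrd1, Gsr and Keap1 added, beside 8.26% of all genes. The median difference was 0.87, against 0.00 for all genes, and the single differences ran from 0.17 in Gclc to 1.71 in Cbr3. Because the list was chosen with earlier results of these data known, these contrasts with all genes are no test.

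The third comparison sets intralipid plus ANGPTL4 against PBS. All 10 genes were again higher, by 0.10 in Keap1 to 0.89 in Abcc1, with a median of 0.55 against 0.00 for all 9995 genes. Higher values were found in 35.4% of all genes and lower ones in 24.4%, and 4016 genes were equal on both arrays. At 2-fold, 0 of 10 were called in either direction, beside 0.850% of all genes called higher and 0.0400% called lower. At 1.5-fold, 4 of 10 were higher (Abcc1, Gclm, Txnrd1 and Cbr3), beside 2.37% of all genes. Each pair of these comparisons shares an array, so the values stand side by side and are not independent of each other.

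**Figure D2:**
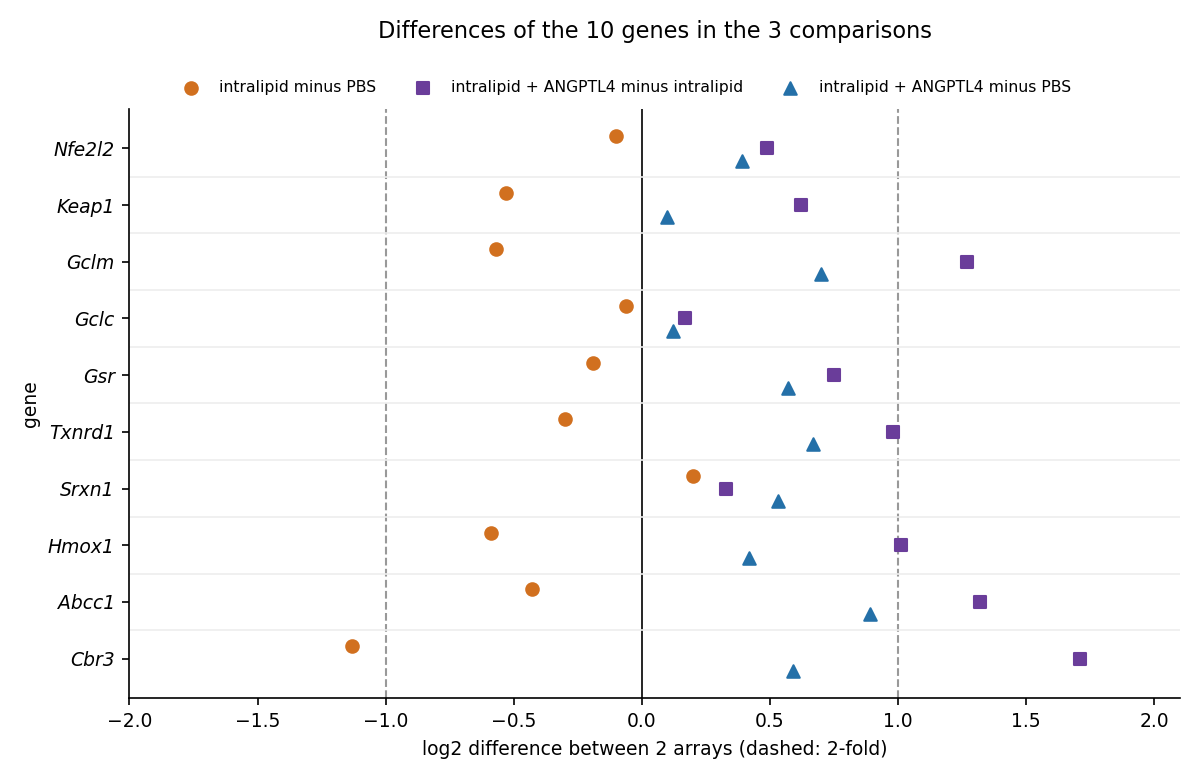
Log2 difference between pairs of arrays (horizontal axis) for each gene (rows): circles are intralipid minus PBS, squares intralipid plus ANGPTL4 minus intralipid, triangles intralipid plus ANGPTL4 minus PBS, and dashed lines mark 2-fold. The squares of Gclm, Hmox1, Abcc1 and Cbr3 lie past 1, that of Txnrd1 lies at 0.98, and the only circle past -1 belongs to Cbr3.

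Among the regulators, Nfe2l2 itself had a log2 value of 10.29 (PBS), 10.19 (intralipid) and 10.69 (intralipid plus ANGPTL4). PBS and intralipid lay close together and the array with ANGPTL4 stood above both. The transcript was 1.41-fold higher on the ANGPTL4 array than on the intralipid array and 1.31-fold higher than with PBS. Keap1, the adaptor that delivers NRF2 to a ubiquitin ligase, read 7.49, 6.96 and 7.59 in the same order of arrays. Here the intralipid array stood apart, 1.44-fold below PBS and 1.54-fold below intralipid plus ANGPTL4. NRF2 is known to be controlled largely through its protein, and the arrays measured transcripts only.

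Glutathione is made by glutamate-cysteine ligase, whose catalytic subunit is Gclc and whose modifier subunit is Gclm, and its oxidised form is returned to use by glutathione reductase, Gsr. Gclm (probe set 10495763) had values of 8.99 (PBS), 8.42 (intralipid) and 9.69 (intralipid plus ANGPTL4). Its level with ANGPTL4 was 2.41-fold that with intralipid alone and 1.63-fold that with PBS. Only 1.18% of all genes had a larger positive difference between intralipid with and without ANGPTL4. Gclc read 8.23, 8.17 and 8.34, within 0.17 over the 3 arrays, so both subunits of the same enzyme showed differences of unlike size. Gsr read 9.05, 8.86 and 9.62 and was 1.69-fold higher on the ANGPTL4 array than on the intralipid array. Its PBS value lay closer to intralipid than to intralipid plus ANGPTL4.

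Txnrd1 encodes the cytosolic thioredoxin reductase, a selenoprotein that passes electrons from NADPH to thioredoxin. It read 10.22 (PBS), 9.92 (intralipid) and 10.90 (intralipid plus ANGPTL4). The step from intralipid to ANGPTL4 was 1.97-fold, a log2 difference of 0.98, just short of the threshold. Srxn1 encodes sulfiredoxin, which restores over-oxidised peroxiredoxins, and its values were 9.40, 9.60 and 9.93. It was the only gene of the 10 with a higher value on the intralipid array than with PBS, by 1.15-fold. Its value with ANGPTL4 was 1.45-fold that with PBS.

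Hmox1 encodes the inducible heme oxygenase, which opens heme to biliverdin, carbon monoxide and iron. It read 10.95 (PBS), 10.36 (intralipid) and 11.37 (intralipid plus ANGPTL4). The intralipid array was 1.51-fold below PBS, and the array with ANGPTL4 2.02-fold above intralipid alone, a log2 difference of 1.01 that barely passed the threshold. Abcc1 encodes a membrane pump for glutathione conjugates and leukotriene C4, with values of 8.05, 7.62 and 8.94. It was 2.50-fold higher on the ANGPTL4 array than on the intralipid array and 1.85-fold higher than with PBS. The latter was the largest difference from PBS among the 10 genes, exceeded by 1.09% of all genes.

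Cbr3 (probe set 10436978) encodes a carbonyl reductase that uses NADPH, and it had the widest range of the 10 genes. Its values were 6.45 (PBS), 5.32 (intralipid) and 7.03 (intralipid plus ANGPTL4). Intralipid stood 2.18-fold below PBS, and ANGPTL4 3.27-fold above intralipid alone. The second of these differences ranked 47th of 10064 genes from the highest, and the first ranked 83rd from the lowest of 10049. The Cbr3 window printed above is one of those with none of the motifs searched, as are the Txnrd1 windows not printed. The printed windows of Gclm and Txnrd1 each held 1 match.

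As a measure of how widely genes differed between single arrays, the robust SD (from the central 68%) was taken over 1000 genes neighbouring in rank of mean level. For genes near the top of that ranking these were the top 1000. Genes equal on both arrays were included. For intralipid with against without ANGPTL4 this spread was 0.17 around Cbr3, 0.27 around Abcc1, 0.31 around Gclm and 0.28 around Hmox1, each below that gene's own difference. For Gclc it was 0.28, above its difference of 0.17. For intralipid against PBS, the differences of Nfe2l2, Gclc, Gsr and Srxn1 were smaller than this spread, which was 0.27, 0.26, 0.28 and 0.28 around them. This spread is over genes, not cultures.

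**Figure D3:**
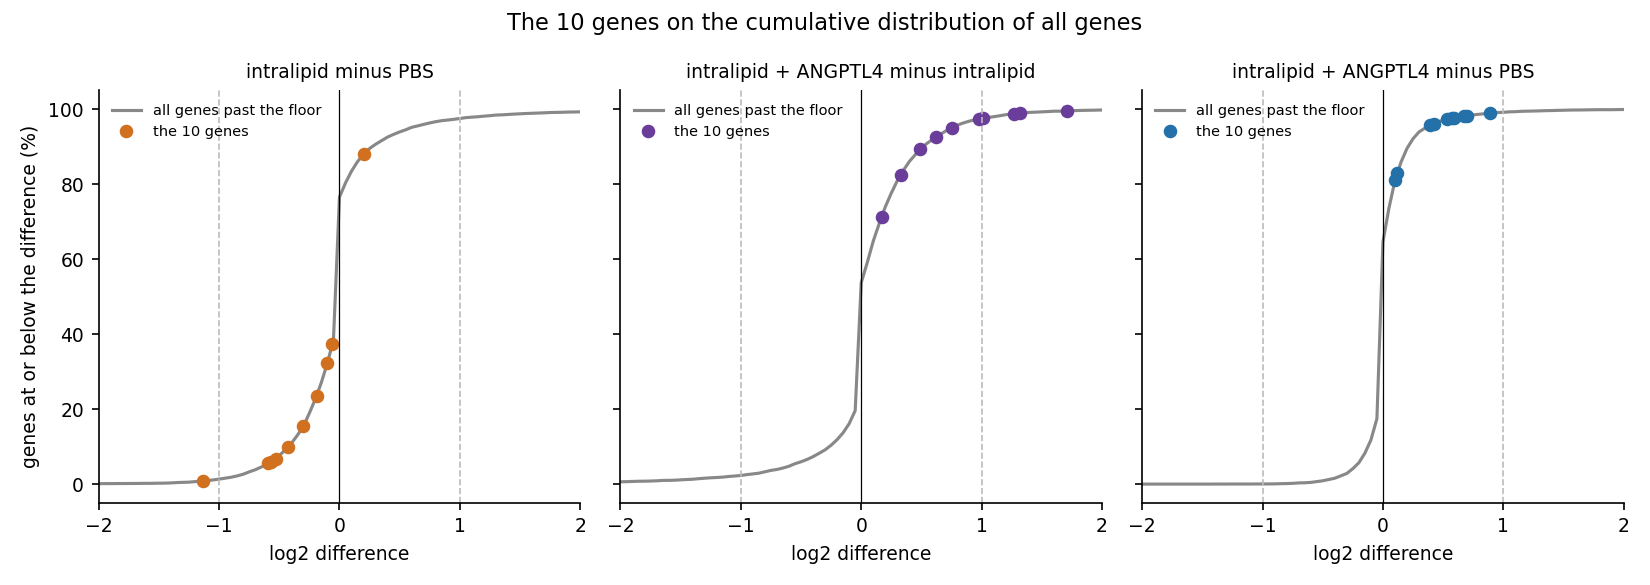
Share of all genes past the floor at or below a log2 difference (vertical axis, percent) against the difference (horizontal axis), 1 panel per comparison, with the 10 genes as points on the curve and dashed lines at 2-fold. In the middle panel every point lies to the right of 0, from 0.17 to 1.71, and in the left panel every point but that of Srxn1 lies to the left of 0.

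The macrophage markers moved unevenly beside these genes. Between intralipid with and without ANGPTL4, 3 of the 11 markers were higher, 4 lower and 4 equal to 2 decimals. Msr1, a scavenger receptor, read 10.02 (PBS), 9.36 (intralipid) and 10.56 (intralipid plus ANGPTL4), the same order as the defence genes. Csf1r, the receptor for the macrophage growth factor, read 10.87, 10.59 and 11.38. Fcgr1 (9.54, 9.07 and 8.53) and Mertk (9.76, 9.83 and 9.39) were instead lowest on the array with ANGPTL4. There Fcgr1 stood 2.01-fold below PBS. Lyz2 (12.91), Tyrobp (11.30) and Ctss (13.02) were equal on all 3 arrays, and Cd14, a co-receptor for endotoxin, read 9.07, 11.17 and 10.34. Their part in the results was not tested.

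Genes with the most similar pattern were sought for the 4 genes whose range was at least 1. Similarity was the distance between pairs of log2 differences from PBS (intralipid, and intralipid plus ANGPTL4) over the 3 arrays, among 9692 named genes past the floor. Nearest to Gclm were Agtrap (0.044), Ccdc86 (0.050) and Pot1b (0.065). Nearest to Hmox1 were Map3k5 (0.038), Elk3 (0.050) and Dpysl2 (0.059), and nearest to Abcc1 were Psmd10 (0.008), Fyb (0.045) and Slc31a2 (0.055). Cbr3 had Sema4a (0.079), Tor3a (0.118) and Usp46 (0.139) nearest. None of the 10 defence genes was among these neighbours. With only 3 of 9692 genes kept for each, this absence does not show how alike the 10 genes are.

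A wider list of 99 other genes of the pathway placed the 10 genes among their partners. Of these, 91 were measured and 72 passed the floor in each comparison. Between intralipid and PBS, 5 were called higher and 2 lower, with a median difference of -0.03. Between intralipid with and without ANGPTL4, 4 were called higher and 4 lower, with a median of 0.06, and 41 were higher and 17 lower by some amount. Between intralipid plus ANGPTL4 and PBS, 2 were called higher (Slc7a11 and Sod2) and 0 lower, with a median of 0.00. As shares of 72 these counts are read beside those of all genes. Of all genes, 2.51% were called higher and 1.32% lower between intralipid and PBS. Between intralipid with and without ANGPTL4, 2.53% were called higher and 2.30% lower, and by some amount 46.3% were higher and 23.0% lower. For intralipid plus ANGPTL4 against PBS, 0.850% were called higher and 0.0400% lower.

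Regulators beside NRF2 and KEAP1 were divided. Of 10 past the floor, 5 were higher, 4 lower and 1 equal with intralipid against PBS, beside 23.5% of all genes higher and 44.4% lower. A total of 3 (Maff, Mafk and Sesn2) were called higher, beside 2.51% of all genes. Maff and Mafk encode small MAF proteins, the partners of NRF2 on DNA. Maff read 5.19 (PBS), 7.21 (intralipid) and 6.16 (intralipid plus ANGPTL4), so it was 4.04-fold higher with intralipid than with PBS and 2.07-fold lower again with ANGPTL4. Mafk read 7.12, 8.56 and 7.20, a difference of 2.71-fold that was nearly absent with ANGPTL4 (1.06-fold above PBS). Sesn2, a stress-induced sestrin known to promote the breakdown of KEAP1, read 5.76, 7.99 and 5.71. For these 3 genes the intralipid array was the high one, whereas it was the low one for 9 of the 10 defence genes.

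Genes of glutathione supply and turnover divided. Slc7a11, the cystine carrier that feeds glutathione synthesis and a known target of both NRF2 and ATF4, read 7.52 (PBS), 9.63 (intralipid) and 10.03 (intralipid plus ANGPTL4). It was 4.31-fold above PBS with intralipid and 5.69-fold above PBS with ANGPTL4, so both lipid-exposed arrays were high. Slc3a2, the heavy chain that carries it to the membrane, read 11.74, 12.61 and 11.82, high on the intralipid array alone. Chac1, which breaks glutathione down, read 5.55, 7.09 and 5.46, with the same single high array.

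Of 21 glutathione peroxidases, transferases and glutaredoxins past the floor, 12 were lower with intralipid than with PBS, 1 was higher and 8 were equal, beside 44.4% of all genes lower and 23.5% higher. Their median difference was -0.02, and 2 (Glrx and Gstp1) were called lower, beside 1.32% of all genes. Glrx, which encodes glutaredoxin and removes glutathione from proteins, read 7.34 (PBS), 5.71 (intralipid) and 7.96 (intralipid plus ANGPTL4). It was 3.11-fold lower with intralipid than with PBS and 4.76-fold higher on the ANGPTL4 array than on the intralipid array. The transferase Gstp1 read 8.64, 7.63 and 8.48, 2.02-fold lower with intralipid than with PBS. Its near-identical neighbour Gstp2 has no probe set of its own, and 2 probe sets that carry both symbols differed by -0.19 and -0.22 in that comparison.

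Thioredoxins, peroxiredoxins, dismutases and catalase were higher in 12 of 14 cases with ANGPTL4 than with intralipid alone, and 1 of them was called higher, beside 46.3% of all genes higher and 2.53% called higher. That gene was Sod2, the mitochondrial superoxide dismutase and a known NF-kB target, with values of 9.27 (PBS), 9.11 (intralipid) and 11.07 (intralipid plus ANGPTL4). Its level with ANGPTL4 was 3.89-fold that with intralipid alone and 3.47-fold that with PBS. Only the intralipid plus ANGPTL4 array was high, while PBS and intralipid lay close. Prdx1, a peroxiredoxin and known NRF2 target, read 11.54, 11.07 and 11.82.

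All 6 measured genes of NADPH supply were higher with ANGPTL4 than without it, by a median of 0.31, beside 46.3% of all genes higher. H6pd, which makes NADPH in the endoplasmic reticulum, read 7.17 (PBS), 6.31 (intralipid) and 7.70 (intralipid plus ANGPTL4), a step of 2.62-fold. Pgd, of the cytosolic pentose phosphate route, read 11.15, 10.40 and 11.36, a step of 1.95-fold. In heme and iron handling, Blvra, which reduces biliverdin to bilirubin, read 10.88, 10.08 and 10.67. There 0 of the 6 genes past the floor were called in any comparison, where at most 2.53% of all genes were called in 1 direction. Among quinone, carbonyl, xenobiotic and export genes, only Abcc4 of 11 past the floor was called, with 6.37, 5.39 and 6.55. Its value was 2.23-fold higher on the ANGPTL4 array than on the intralipid array, beside 2.53% of all genes called higher. Nqo1, the quinone reductase often used to read NRF2 activity, stayed below the floor with 4.62 on each array. Slc3a2, Prdx1, Pgd and Nqo1 were named after their values were seen.

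**Figure D4:**
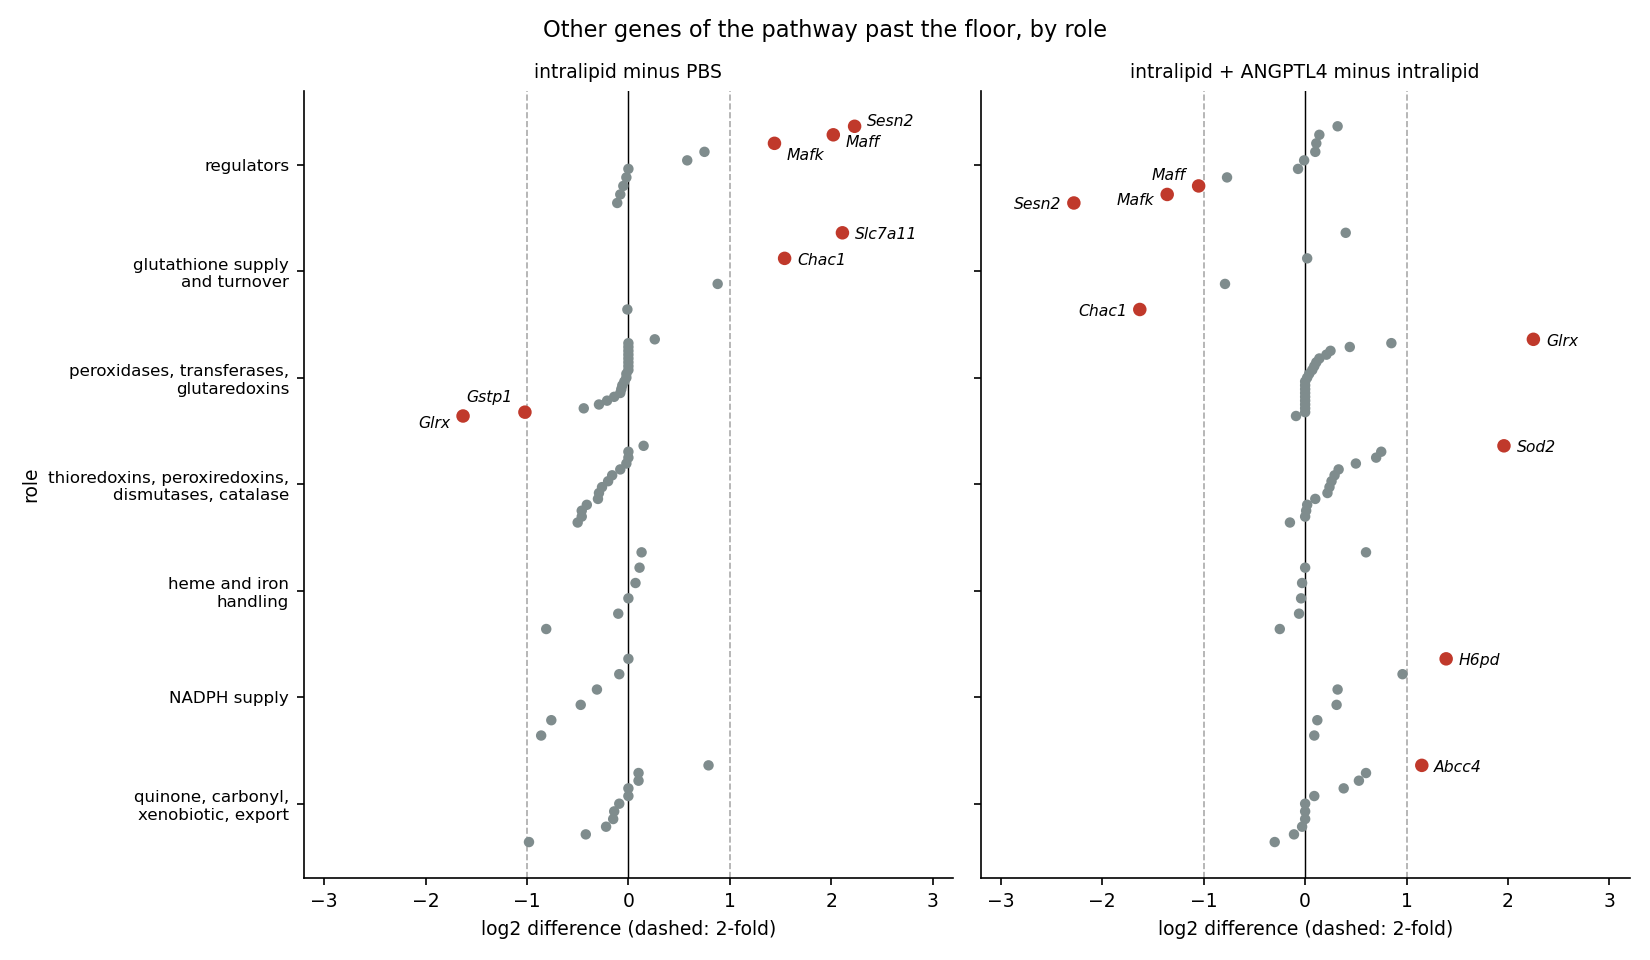
Log2 difference (horizontal axis) of the genes of the wider list past the floor on at least 1 array, in rows by role, for intralipid minus PBS (left) and intralipid plus ANGPTL4 minus intralipid (right). Each point is 1 gene, red points with names are called at 2-fold (dashed lines), and 5 genes lie past the right line on the left panel and 4 on the right panel.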

How the data were processed

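RNA of 3 groups of Angptl4-/- macrophages was measured on 3 arrays, 1 per group. The authors deposited 1 log2 value per probe set and array, made with RMA, per the submitters' processing notes. RMA corrects background, normalizes between arrays and summarises the probes of a probe set. Version, chip definition and genome build: not given in the sources used here. Column medians were 4.50, 4.54 and 4.54 for PBS, intralipid and intralipid plus ANGPTL4, so the scale was taken as log2 without centring. On all 3 arrays, 41.4% of the 35556 probe sets held 1 identical value.

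Of the probe sets, 21789 had 1 symbol in the platform annotation, 1621 several and 12146 none. Single-symbol probe sets were used, the one with the highest mean per gene, and no member had a second. All 10 members matched RefSeq by gene identifier with the same symbol. Differences were taken on the values as deposited, with the floor and 2-fold rule given in the results, and no p-value was computed. The call rule was run on simulated arrays with little noise and differences well clear of the 2-fold threshold. This checked that the rule was applied as written, and says nothing about the reliability of calls near the threshold. Genes named were the 10 members, genes of the wider list called in any comparison, the gene with the largest difference in each role group, and the 3 nearest genes of members whose range was at least 1. The members, the wider list and the markers were chosen with earlier results of these data known. As alternatives, the fold threshold was set to 1.5 or 3, the floor was dropped or raised to the 75th percentile, and values came from median centring, quantile and cyclic loess normalization (limma 3.58.1 in R 4.3.3) or the mean over a gene's probe sets. Other steps used Python 3.11.15 with pandas 2.3.3.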

Additional observations from a re-analysis of the deposited data

How the results depend on the processing

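With 1 array per group, no spread between cultures, no test and no leave-one-out value could be had, and the arrays' number and signal over background limit every value. No paired analysis was possible, since each group was 1 array of pooled RNA. The 90 alternative values of the members' differences under median centring, quantile and cyclic loess normalization all moved by less than the robust SD over genes, and none changed sign. Under them Hmox1 ranged from 1.00 to 1.02 and Txnrd1 from 0.96 to 0.98 between intralipid with and without ANGPTL4. The mean over probe sets could not move the members, which have 1 probe set each. Under the same normalizations, the medians of the 10 genes and of the wider list moved by less than that spread too. No normalization moved the median of all genes by over 0.04. The share of calls that were higher moved most under quantile normalization, from 52.5% to 48% between intralipid with and without ANGPTL4.

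Counts depended on the fold threshold. At 1.5-fold, members called were 2 lower for intralipid against PBS, 7 higher for intralipid with against without ANGPTL4 and 4 higher for intralipid plus ANGPTL4 against PBS. At 3-fold they were 0, 1 (Cbr3) and 0. The floor at the 75th percentile also left 0 members lower with intralipid than with PBS. It left 3 members higher with ANGPTL4 than with intralipid alone, instead of 4. In both cases Cbr3 was lost, since it lay below that floor. For the wider list at 1.5-fold, 8 were higher and 6 lower for intralipid against PBS, 10 higher and 6 lower with against without ANGPTL4 and 4 higher and 0 lower against PBS. At 3-fold these were 3 higher and 1 lower, then 2 higher and 2 lower with against without ANGPTL4. Quantile normalization left 1 gene of the wider list lower with intralipid than with PBS. Over all genes the counts at 1.5-fold were 509 higher and 560 lower, 831 and 498, and 237 and 53 in the order of the comparisons, and at 3-fold 117 and 20, 59 and 102, and 25 and 0.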

Other observations

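Some genes of the wider list, and second probe sets of them, were not described above. Prdx1 had a second probe set, with log2 values of 11.11 (PBS), 10.52 (intralipid) and 11.52 (intralipid plus ANGPTL4). It differed by 1.01 between intralipid with and without ANGPTL4, past 2-fold, whereas the probe set used for the gene differed by 0.75. Prdx2, another peroxiredoxin, was read by 2 probe sets that disagreed in size, with a difference of 0.70 in the brighter and 0.04 in the other. The ferritin chains that store iron were nearly level, with Fth1 at 13.09, 13.20 and 13.16 and Ftl1 at 12.90, 12.97 and 12.91 in that order. Bach1, a heme-sensing repressor of antioxidant response elements, read 9.13, 9.11 and 9.10, and its relative Bach2 read 5.31, 6.06 and 5.29. Sqstm1, an autophagy receptor that binds KEAP1, read 11.42 (PBS), 12.00 (intralipid) and 11.93 (intralipid plus ANGPTL4). The cell-surface pump Abcc5 read 8.43, 9.22 and 8.93. These genes were picked after their values were seen, and no explanation was tested.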
